A study of Mus musculus with 6 samples.

Results

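The 6 genes described here encode the subunits of AMP-activated protein kinase (AMPK) that are counted in liver: the catalytic subunits Prkaa1 and Prkaa2, the scaffold subunits Prkab1 and Prkab2, and the nucleotide-binding subunits Prkag1 and Prkag2. They were chosen by symbol, and all 6 were found among the 55450 genes of the table. All 6 also passed the filter on low counts, which kept 14539 genes. Polyadenylated RNA of the left lobe of the liver was sequenced from 3 mice labelled LKB1 fl/fl and 3 labelled wild type (WT), with 1 library per mouse. Both groups, of the strain labelled C57BL/J, were injected with AAV8 Cre at 6 weeks of age and were 10 weeks old when the liver was taken, so the virus is shared by the controls. LKB1, encoded by Stk11, is deleted where Cre removes the loxP-flanked segment, and the 3 mice are called knockout (KO) below. The promoter that drives Cre, which decides the cells that lose LKB1, is not given in the sources used here.

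AMPK is a sensor of cellular energy built from an alpha, a beta and a gamma subunit, each of which is encoded by paralogous genes. The alpha subunit carries the kinase domain, the beta subunit holds the complex together and binds glycogen, and the gamma subunit binds AMP, ADP and ATP. LKB1 activates AMPK by phosphorylating the activation loop of alpha. In hepatocytes active AMPK phosphorylates enzymes of lipid synthesis. Messenger RNA levels, which are what was measured here, report neither phosphorylation nor the amount of protein.

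Stk11 was at 22.1, 14.4 and 11.4 CPM (counts scaled to a common library size by TMM) in KO replicates 1 to 3 and at 66.1, 64.2 and 69.7 CPM in WT replicates 1 to 3. It was thus 4.17-fold lower in KO, with no overlap (edgeR quasi-likelihood test, adjusted p = 0.0167, n = 3 mice each). Library totals ran from 47659122 to 56147667 counts. Replicate 1 of each group had at least 29243 Xist counts and at most 6 counts of Y-linked genes, whereas the other 4 libraries had at most 16 Xist counts and at least 6146 Y-linked counts. The labels do not mention this difference, and results are therefore also given within these sets of libraries. Summed hepatocyte markers (6 of 6 found) spanned 26114 to 69709 CPM in KO and 76818 to 116984 CPM in WT. Alb alone was at 10394 to 50550 CPM in KO and 57064 to 95626 CPM in WT. Without it the sums overlapped, at 15720 to 26064 CPM in KO and 19754 to 21359 CPM in WT. The 5 genes in these sums include some that were lower and some that were higher in KO. Apoa1 and Ttr were also lower in every KO library than in any WT library, whereas Cps1 was higher, at 6042 to 12440 CPM against 3361 to 3960 CPM. Of these 6 genes 1 passed the edgeR test, Tat, which rose from between 1058 and 1190 CPM in WT to between 3005 and 5971 CPM in KO. Summed endothelial markers (5 of 5 found) spanned 65.4 to 108 CPM in KO and 131 to 175 CPM in WT. Summed markers of Kupffer, stellate, bile duct, T and B, skeletal muscle, red blood and fat cells overlapped between the groups. For Kupffer, stellate, bile duct and red blood cells, however, KO replicates 2 and 3 lay below every WT library, and only KO replicate 1 gave the overlap. The Kupffer sums, for example, spanned 54.9 to 147 CPM in KO and 92.7 to 125 CPM in WT. Skeletal muscle sums, at most 1.29 CPM, were above every WT library in those replicates. The T and B sum was mostly Ptprc, its other genes being at most 0.670 CPM. The fat cell sum was nearly all Car3 except in KO replicate 2, where Cidec was at 8.30 CPM. Car3 was at 1618, 8.12 and 78.5 CPM in KO replicates 1 to 3. In WT Car3 was at 1450 to 3440 CPM, so this sum overlapped only through KO replicate 1. Adipoq and Plin1 were at most 0.0641 CPM, and the sum is not read as a measure of fat cells. The part of these differences in the results below was not tested. In bulk tissue, fewer cells of a type and less RNA per cell cannot be told apart.

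All 6 members are protein-coding, and positions are on GRCm38, from GENCODE M21. Prkaa1 (ENSMUSG00000050697.9) lies on chromosome 15 from 5143861 to 5181899, plus strand. Prkaa2 (ENSMUSG00000028518.8) lies on chromosome 4 from 105029874 to 105109890, minus strand. Prkab1 (ENSMUSG00000029513.14) lies on chromosome 5 from 116013586 to 116024508, minus strand, and Prkab2 (ENSMUSG00000038205.12) on chromosome 3 from 97658193 to 97673812, plus strand. Prkag1 (ENSMUSG00000067713.7) lies on chromosome 15 from 98812797 to 98831521 and Prkag2 (ENSMUSG00000028944.14) on chromosome 5 from 24862744 to 25100642, both on the minus strand. No member had a transcript stretch of at least 76 nt, the read length, that was at least 95% identical to a transcript of another gene, apart from antisense genes at the same place. Exons of the antisense gene B130046B21Rik cover 43.7% of the exon bases of Prkag1, but it had at most 1 count in a library. The antisense genes Prkag2os1 and Prkag2os2 had 0 counts in all 6 libraries. Whether counting used the strand is not given in the sources used here, so reads of these antisense genes could have been counted for Prkag1 or Prkag2. Prkag2 spans 237899 bases and has 6 annotated coding transcripts with different starts, whose counts are summed in its single row.

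The promoters of the beta pair are shown because this pair held the only member whose KO and WT libraries did not overlap. Both sequences are from RefSeq (GRCm38.p6), read 5′ to 3′ on the strand of the gene. They hold the bases upstream of the start that lie in no annotated exon of the gene. Capitals mark GC boxes on either strand, and no base of the Prkab1 run is in capitals.
Prkab1, chr5:116024509-116024678, minus strand: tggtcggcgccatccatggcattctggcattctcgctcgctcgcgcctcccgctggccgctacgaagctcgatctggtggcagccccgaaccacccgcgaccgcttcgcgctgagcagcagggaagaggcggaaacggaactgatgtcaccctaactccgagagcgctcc
Prkab2, chr3:97657962-97658192, plus strand: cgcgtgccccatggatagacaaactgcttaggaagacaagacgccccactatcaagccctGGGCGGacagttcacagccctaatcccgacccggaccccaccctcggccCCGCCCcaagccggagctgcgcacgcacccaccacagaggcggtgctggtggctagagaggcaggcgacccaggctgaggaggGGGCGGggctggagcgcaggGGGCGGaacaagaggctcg

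In the full 250 bases before the RefSeq start, searched on both strands, Prkab2 held 5 GC boxes (GGGCGG), of which 4 lie in the printed bases, and 0 ETS cores (CGGAAG). Prkab1 held 0 GC boxes and 2 ETS cores, both in bases that GENCODE annotates as exon and that are not printed. A GC box was present in 32.7% and an ETS core in 13.6% of 32851 mouse promoters of this length. Over the 8 RefSeq starts of the 6 members, 6 held a GC box, 2 an ETS core, 3 a CCAAT box (CCAAT), 2 a CRE core (TGACG) and 0 a TATA box (TATAAA). The shares of all promoters were 33.8%, 17.8% and 12.4% for the last 3 of these motifs. The searched bases were 65.6% GC in Prkab1 and 69.2% GC in Prkab2, against a median of 52.4% over all promoters. These matches describe letters only.

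Levels were compared between genes as CPM per kilobase of exon, with all annotated exons of a gene joined as its length. Prkag1 was the most abundant member, with a mean of 13.9 over the 6 libraries and a range from 12.2 to 17.5. Prkaa2 followed at 10.4 (7.64 to 13.7), then Prkab1 at 6.86 (4.88 to 9.04), Prkag2 at 3.86 (2.81 to 4.99) and Prkaa1 at 2.92 (2.10 to 3.40). Prkab2 was lowest at 0.481 (0.408 to 0.518). On this scale Prkag1 exceeded 83.7% of the 14539 genes tested and Prkab2 exceeded 22.6%.

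With this length, Prkag1 was above Prkaa2 and Prkag2 above Prkaa1 in 5 of 6 libraries, and the other neighbours kept their places in all 6. The levels depended on the length used. When only the principal transcript of each gene gave the length, a choice made after seeing the data, Prkag1 had a mean of 18.3, Prkaa2 of 10.4, Prkab1 of 10.1, Prkag2 of 7.52, Prkaa1 of 2.92 and Prkab2 of 0.490. The order of the means was the same, and Prkag1 was then above Prkaa2 and Prkag2 above Prkaa1 in 6 of 6 libraries. Prkaa2, however, was above Prkab1 in 2 of 6 libraries and in 0 of the 3 KO libraries. The order of Prkaa2 and Prkab1, and how clearly Prkag1 and Prkag2 exceed their neighbours, therefore rest on the length. Prkaa1 was above Prkab2 in 6 of 6 libraries and Prkab1 above Prkag2 in 6 of 6 with either length. Within classes, with all exons as the length, Prkaa1 made up 23.7 ± 1.86% of alpha transcripts in KO and 20.6 ± 3.27% in WT (SD, n = 3 each). Prkag1 made up 79.5 ± 4.62% of gamma transcripts in KO and 76.9 ± 3.13% in WT, or 72.4 ± 5.59% and 69.3 ± 3.74% with the principal transcript. The muscle gamma subunit gene Prkag3, which is no member, had at most 3 counts in any library.

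**Figure D1:**
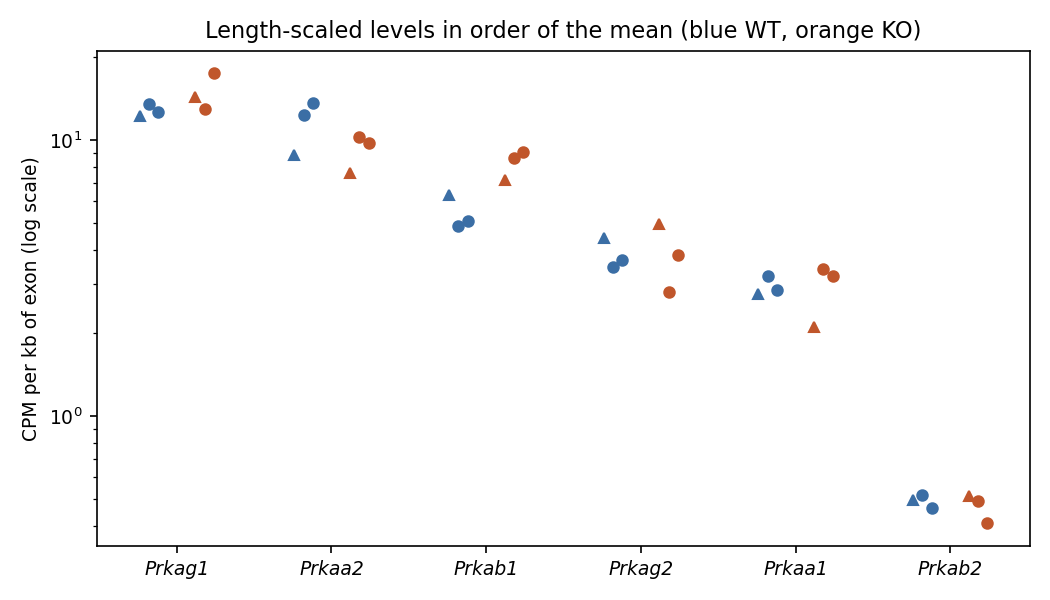
Length-scaled level (CPM per kilobase of exon, log axis) of the 6 genes in each library, ordered by the mean; blue points are WT, orange points KO, triangles the libraries with Xist counts. Prkag1 is highest with a mean of 13.9 and Prkab2 lowest with a mean of 0.481.

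The comparison of KO with WT asks whether loss of LKB1 was accompanied by a change in the transcripts of the kinase complex that it activates. Of the 6 members, 0 passed the threshold, an adjusted p-value under 0.05 over all genes in edgeR, where 3.37% of the genes tested passed, 2.15% as higher in KO. By DESeq2, 1 member passed, against 15.8% of all genes. At an unadjusted p-value under 0.05 there was 1 member, Prkab1, against 26.3% of all genes. The median log2 fold change of the members was -0.00, beside 0.01 over all genes tested, and the median absolute log2 fold change was 0.14, beside 0.33. KO and WT libraries did not overlap for 1 of the 6 members, against 32.4% of all genes. With 1 library per mouse, the tests set the difference between groups against the variation between mice. Within each group that variation includes the difference between libraries with Xist and with Y-linked counts.

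Prkaa1, a catalytic subunit found in most tissues, was at 9.80, 15.8 and 14.9 CPM in KO replicates 1 to 3 and at 12.9, 14.9 and 13.3 CPM in WT replicates 1 to 3. KO replicate 1 was the lowest of the 6 libraries and KO replicate 2 the highest, so the KO values enclosed the WT values. The means were 13.5 ± 3.25 CPM in KO and 13.7 ± 1.09 CPM in WT (SD, n = 3 each). By edgeR the log2 fold change was -0.02 ± 0.199 (SE; adjusted p = 0.956), and its 95% interval ran from 0.711-fold to 1.37-fold.

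Prkaa2, the catalytic subunit that is abundant in liver and muscle, was at 60.9, 81.6 and 77.8 CPM in KO and at 70.4, 98.5 and 109 CPM in WT. WT replicates 2 and 3 were above every KO library, while WT replicate 1 lay within the KO range. The means were 73.4 ± 11.0 CPM in KO and 92.7 ± 20.04 CPM in WT (SD, n = 3 each). On the log2 scale KO minus WT was -0.34 ± 0.203 (SE; edgeR adjusted p = 0.333), with a 95% interval from 0.567-fold to 1.11-fold. The difference was -0.39 when only the Y-linked libraries were used (edgeR adjusted p = 0.0507), which did not pass the threshold either.

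Prkab1, the scaffold subunit that made up most beta transcripts, was the member with the largest difference. It was at 22.0, 26.4 and 27.7 CPM in KO and at 19.5, 15.0 and 15.6 CPM in WT. Every KO library lay above every WT library, and the closest values were those of the replicates with Xist counts. This direction without overlap was seen for 16.9% of all genes tested. The means were 25.4 ± 3.00 CPM in KO and 16.7 ± 2.44 CPM in WT (SD, n = 3 each). KO exceeded WT by 0.60 ± 0.154 (SE) on the log2 scale, or 1.52-fold, with a 95% interval from 0.24 to 0.97 on the log2 scale. The unadjusted p-value was 0.00584 and the adjusted p-value 0.0755 in edgeR, above the threshold, and 7.72% of the genes tested had a smaller p-value.

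The result for Prkab1 depended on the libraries and the tool. Within the 4 libraries with Y-linked counts its log2 fold change was 0.82 ± 0.102 (SE) and its adjusted p-value 0.00433 in edgeR, where 33.3% of all genes passed, 17.2% as higher in KO. Without KO replicate 1 the log2 fold change was 0.69 (edgeR adjusted p = 0.0153), where 30.2% of all genes passed. By DESeq2 it was 0.59 (adjusted p = 0.0221), where 15.8% of all genes passed. Over the 14 alternatives run the adjusted p-value ran from 0.00433 to 0.259, and the log2 fold change from 0.53 to 0.82. In the pair with Xist counts, a comparison of single libraries without replication, the log2 ratio was 0.17.

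Prkab2, the other scaffold subunit, was at 2.61, 2.50 and 2.08 CPM in KO and at 2.52, 2.64 and 2.35 CPM in WT, from 98 to 152 counts per library. The groups overlapped, and KO replicate 3 was the lowest library. The means were 2.40 ± 0.279 CPM in KO and 2.51 ± 0.146 CPM in WT (SD, n = 3 each). In edgeR the difference was -0.06 ± 0.208 (log2 scale, SE; adjusted p = 0.868), and the 95% interval ran from 0.680-fold to 1.35-fold.

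Prkag1, the gamma subunit that is widely expressed, was at 31.1, 28.4 and 38.1 CPM in KO and at 26.6, 29.4 and 27.6 CPM in WT. KO replicate 3 was highest, and KO replicate 2 lay within the WT range. The means were 32.5 ± 5.01 CPM in KO and 27.9 ± 1.44 CPM in WT (SD, n = 3 each). Their difference of 0.22 ± 0.140 (log2 scale, SE) did not pass (edgeR adjusted p = 0.353), and its 95% interval ran from 0.926-fold to 1.47-fold.

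Prkag2, the gamma subunit with several alternative starts, was at 32.3, 18.2 and 24.9 CPM in KO and at 28.6, 22.4 and 23.8 CPM in WT. The KO values enclosed all WT values, as they did for Prkaa1. The means were 25.1 ± 7.05 CPM in KO and 24.9 ± 3.23 CPM in WT (SD, n = 3 each). A difference of 0.01 ± 0.220 on the log2 scale (SE; edgeR adjusted p = 0.978) was fitted, with a 95% interval from 0.703-fold to 1.45-fold. The direction turned in 7 of 14 alternatives for Prkag2, in 4 for Prkaa1 and in 1 for Prkab2, so no direction is read for these genes. The intervals of all 6 members lay within 2-fold on either side, and only that of Prkab1 did not include equal levels.

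**Figure D2:**
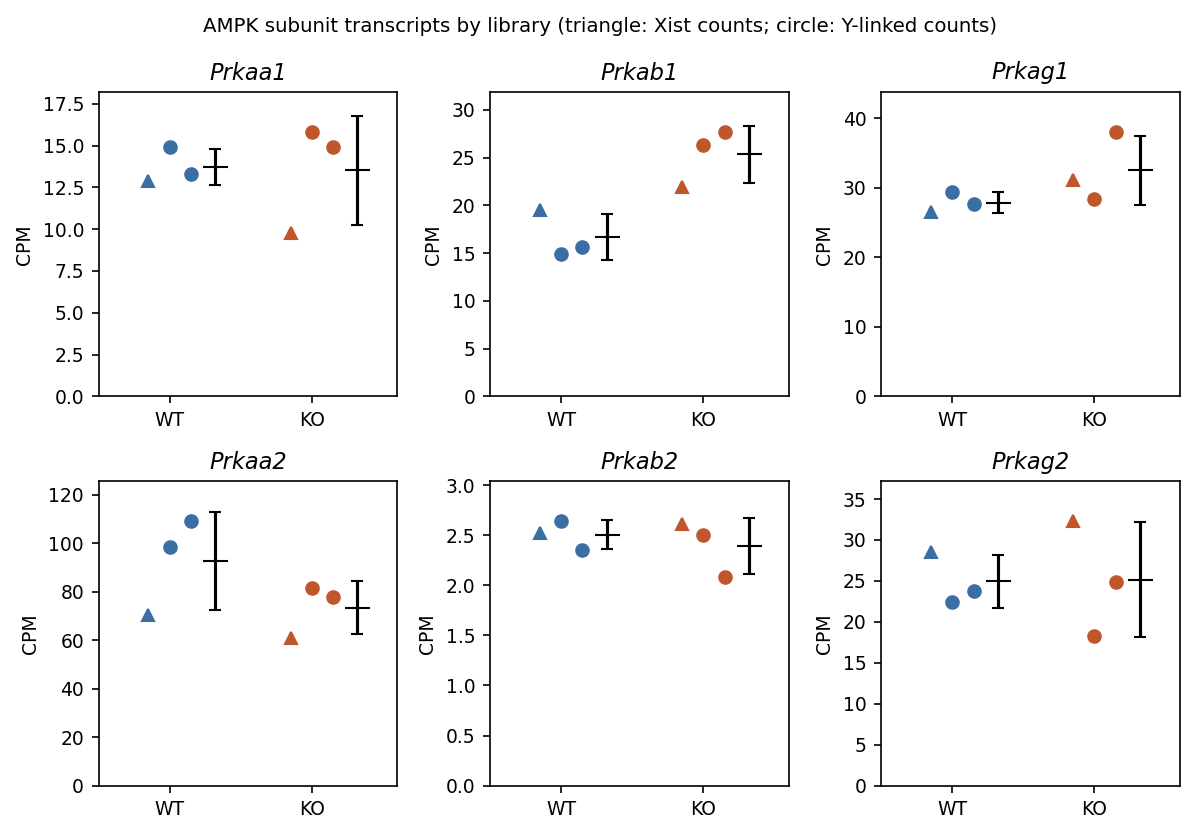
CPM of each gene in the 3 WT (blue) and 3 KO (orange) libraries; triangles are libraries with Xist counts, circles those with Y-linked counts, and black bars give the mean and SD. The groups are apart for Prkab1, at 22.0 to 27.7 CPM in KO against 15.0 to 19.5 CPM in WT, and overlap for the other 5 genes.

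Of the 6 members, 3 separated the libraries with Xist counts from those with Y-linked counts. Prkag2 was higher in both libraries with Xist counts, at 32.3 and 28.6 CPM, than in any of the other 4, at 18.2 to 24.9 CPM. Prkaa2 was lower in both, at 60.9 and 70.4 CPM against 77.8 to 109 CPM, and so was Prkaa1, at 9.80 and 12.9 CPM against 13.3 to 15.8 CPM. Such separation was seen for 22.9% of all genes tested. With the group in the model, the log2 differences between libraries with Xist and with Y-linked counts were 0.45 for Prkag2, -0.47 for Prkaa2 and -0.39 for Prkaa1. Adjusted p was 0.227, 0.163 and 0.266 in turn (edgeR), so 0 of the 6 members passed, and 0.138% of all genes did. Unadjusted p-values were under 0.05 for Prkag2 (0.0290) and Prkaa2 (0.00750), and for 18.9% of all genes. This comparison was chosen after the values were seen.

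Whether the difference between KO and WT varied with this state of the library was tested as an interaction. It was -0.65 ± 0.174 (SE, log2 scale) for Prkab1, the smaller KO difference being in the pair with Xist counts, and edgeR gave an unadjusted p of 0.0109 and an adjusted p of 0.130. For Prkaa1 it was -0.51 ± 0.208 (edgeR adjusted p = 0.242). For the other 4 members the adjusted p-value was between 0.619 and 0.991. Thus 0 of 6 members passed in edgeR, where 2.90% of all genes passed, and 1 member had an unadjusted p-value under 0.05, where 20.9% of all genes did. The test rests on 1 library of each group in the Xist set. The KO library of that set, KO replicate 1, also had the most Stk11 of the KO libraries, at 22.1 CPM against 14.4 and 11.4 CPM. The interaction cannot separate the state of the library from this difference in Stk11, and neither was tested alone.

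**Figure D3:**
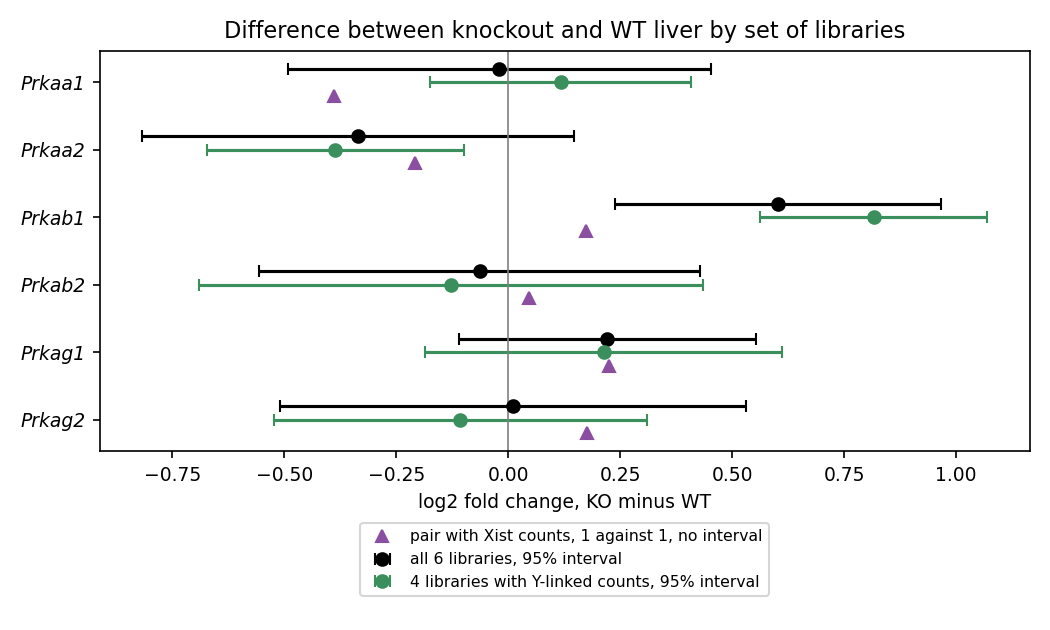
Log2 fold change of KO against WT for each gene, from all 6 libraries (black), the 4 libraries with Y-linked counts (green) and the pair with Xist counts (purple, no interval); bars are 95% intervals. Prkab1 lies at 0.60 with all libraries, at 0.82 with the 4 libraries and at 0.17 in the pair, and the black interval of every other gene includes 0.

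The make-up of each subunit class was compared as the ratio of its paralogs on the length-scaled values, which does not depend on library scaling. Prkab1 was 14.0, 17.5 and 22.15 times as abundant as Prkab2 in KO and 12.8, 9.41 and 11.0 times in WT, with no overlap. The log2 ratio differed by 0.68 between KO (4.14 ± 0.331) and WT (3.46 ± 0.223; SD, n = 3 each). The exact two-sided permutation test gave p = 0.1, the smallest that 3 against 3 allows, and 0.3 after adjustment over the 3 classes. The share of Prkab1 among beta transcripts was 94.5 ± 1.17% in KO and 91.6 ± 1.19% in WT.

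The alpha ratio, Prkaa1 over Prkaa2, was 0.276, 0.332 and 0.328 in KO and 0.313, 0.260 and 0.209 in WT. The groups overlapped, with a log2 difference of 0.28 (exact permutation p = 0.2, adjusted 0.3). The gamma ratio, Prkag1 over Prkag2, was 2.87, 4.64 and 4.56 in KO and 2.77, 3.91 and 3.46 in WT. It overlapped as well, with a log2 difference of 0.23 (exact permutation p = 0.5, adjusted 0.5). In both groups the gamma ratio was lowest in replicate 1, the library with Xist counts.

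**Figure D4:**
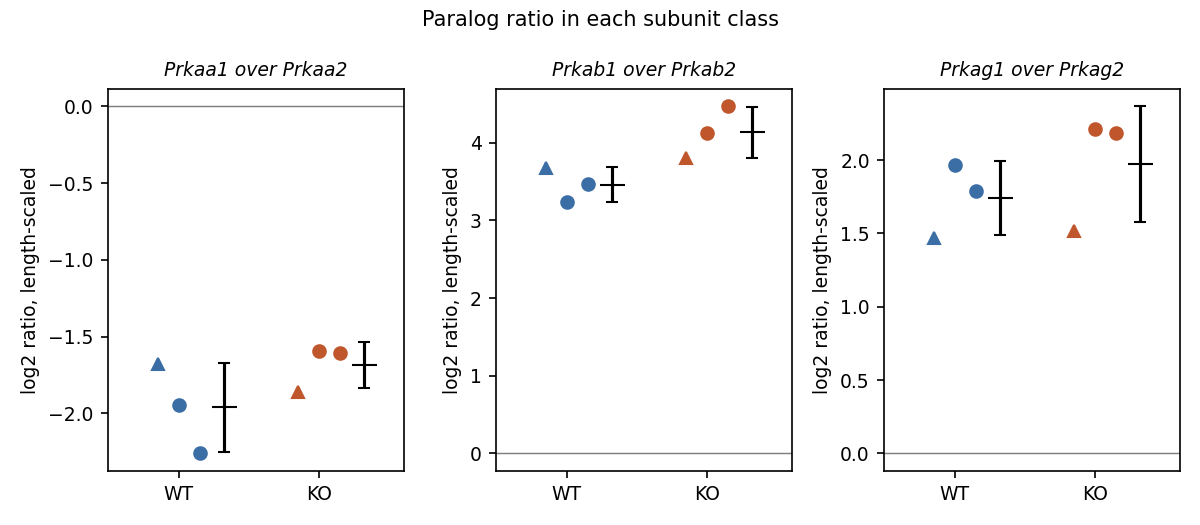
Log2 ratio of the paralogs of each subunit class on length-scaled values, by library (blue WT, orange KO, triangles with Xist counts), with mean and SD in black; the grey line marks equal levels. Only in the beta panel do KO and WT not overlap, with means of 4.14 and 3.46.

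Summed over paralogs, beta transcripts were at 7.68, 9.09 and 9.45 CPM per kilobase in KO and at 6.85, 5.40 and 5.56 in WT. They were 1.48-fold higher in KO with no overlap (exact permutation p = 0.1, adjusted 0.3), and this sum consists mostly of Prkab1. Summed alpha transcripts were at 12.1 ± 2.08 in KO and 14.6 ± 2.63 in WT (SD, n = 3 each), and overlapped (exact permutation p = 0.3, adjusted 0.4). Summed gamma transcripts were at 18.8 ± 2.78 in KO and 16.7 ± 0.313 in WT, and overlapped (exact permutation p = 0.4, adjusted 0.4). With all exons as the length, beta transcripts were the least abundant of the 3 classes in every library, and gamma exceeded alpha transcripts in 5 of 6 libraries, the exception being WT replicate 3 (16.4 against 16.6). With the length of the principal transcript, beta exceeded alpha transcripts in KO replicate 1 (11.04 against 9.74) and KO replicate 3 (13.7 against 12.97), and gamma exceeded alpha transcripts in 6 of 6 libraries.

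Around the complex, 73 other genes in 6 lists were examined, of which 67 were tested. Of these, 2 rose and 2 fell in KO in edgeR's test (5.97%, beside 3.37% of all genes), and 34.3% had no overlap between groups, beside 32.4%. An unadjusted p-value under 0.05 was found for 31.3% of them, beside 26.3% of all genes, and the counts at this level in each list below stand against that share. Their median log2 fold change was -0.17, beside 0.01 over all genes. The genes that fell include Stk11 itself, which was deleted, and the lists were chosen with earlier results of these data known. The share that passed is therefore not read as a result about the pathway. Among upstream kinases and partners of LKB1, Stk11 alone of 8 tested genes passed; Map3k7, a kinase reported to phosphorylate AMPK, had a log2 fold change of -0.42 (adjusted p = 0.193), and Strada, an LKB1 partner, -0.41 (adjusted p = 0.345).

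Of 8 tested genes for proteins that bind, modify or dephosphorylate AMPK, 0 passed in edgeR and 2 had an unadjusted p-value under 0.05. Fnip2, which encodes a folliculin-interacting protein that binds AMPK, was at 16.7, 9.67 and 8.28 CPM in KO and at 34.6, 30.4 and 22.3 CPM in WT. Its groups did not overlap, with a log2 fold change of -1.33 ± 0.298 (SE; edgeR adjusted p = 0.0605). It fell by 1.56 among the Y-linked libraries alone (edgeR adjusted p = 0.00370), where 33.3% of all genes passed. Genes of every list passed there in edgeR, among them Eef2k (adjusted p = 0.00509) and Ak4 (adjusted p = 0.0150), which are described below. Nmt2, an N-myristoyltransferase, had a log2 fold change of -0.39 (adjusted p = 0.132), and Fnip1 -0.29 (adjusted p = 0.389).

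Of 15 metabolic substrates, 1 fell and 8 had an unadjusted p-value under 0.05, with a median log2 fold change of -0.37. Pfkfb3, a regulator of glycolytic flux, fell from 8.02 ± 2.30 to 2.94 ± 0.222 CPM (SD, n = 3 each; edgeR adjusted p = 0.0322). Pfkfb1, the liver paralog of Pfkfb3, had a log2 fold change of -0.44 (adjusted p = 0.0747).

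Of 16 substrates in growth, autophagy and mitochondria, 1 rose and 0 fell. Ppargc1a, a transcriptional coactivator of mitochondrial and gluconeogenic genes, rose by 2.98 ± 0.565 on the log2 scale (SE, adjusted p = 0.0446 in edgeR). Eef2k, the kinase of a translation elongation factor, had a log2 fold change of -1.40 (adjusted p = 0.0932), and Nos3, the endothelial nitric oxide synthase, -0.86 (adjusted p = 0.112). Nos3 is itself expressed by endothelial cells, whose summed markers were lower in KO as given above. Whether this bears on its value was not tested. Of 11 tested AMPK-related kinases, Sik1 rose by 2.52 ± 0.474 (SE, adjusted p = 0.0440) and no gene fell. Nuak2 and Snrk had log2 fold changes of -0.80 and -0.37 (adjusted p = 0.0732 and 0.0877).

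Of 9 tested genes of AMP and ADP turnover, 0 passed in edgeR and 3 had an unadjusted p-value under 0.05. Ak4, a mitochondrial adenylate kinase, was at 42.8, 21.9 and 37.7 CPM in KO and at 60.4, 75.9 and 71.8 CPM in WT, without overlap (log2 fold change -1.02 ± 0.253, SE, adjusted p = 0.0720). Adk, the adenosine kinase that makes AMP, had a log2 fold change of 0.70 (adjusted p = 0.112), and the nucleotidase gene Nt5c2 0.46 (adjusted p = 0.126). All 4 genes that passed with 6 libraries, Stk11, Pfkfb3, Ppargc1a and Sik1, differed by more on the log2 scale than any AMPK subunit gene. The 4 genes were picked for passing, and Stk11 is the deleted gene, so larger differences were favoured by this choice. Each kept its direction in the 14 alternatives, but none of the 4 passed in edgeR without KO replicate 2, KO replicate 3, WT replicate 2 or WT replicate 3, where adjusted p-values ran from 0.0607 to 0.211. Sik1 also missed the threshold without WT replicate 1 (0.106), and with a replicate block only Stk11 passed (0.0407).

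**Figure D5:**
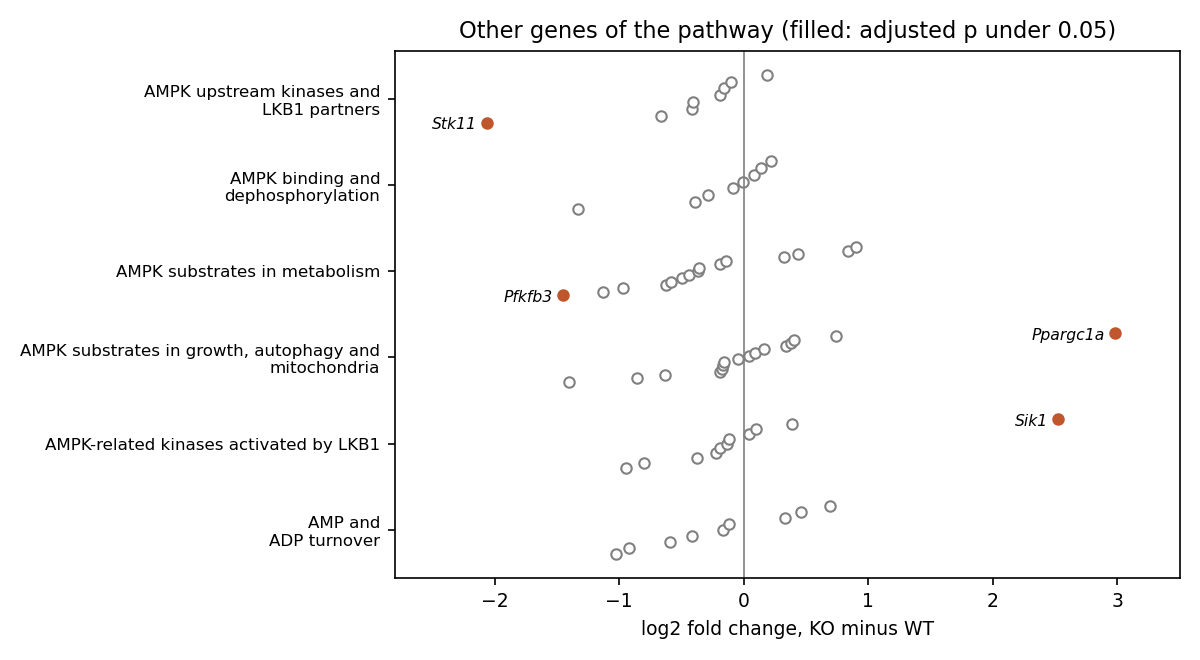
Log2 fold change of KO against WT for the 67 tested pathway genes in 6 lists; filled orange points had an adjusted p under 0.05 in edgeR and open points did not. The 4 filled points are Stk11 and Pfkfb3 on the lower side and Ppargc1a and Sik1 on the higher side.

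The genes whose log2 CPM followed each member most closely over the 6 libraries are given as a description. The closest to Prkab1 were Lmod3, Idh2 and Gm12231, with Pearson coefficients of 0.996, 0.994 and 0.993, and 258 genes had a coefficient above 0.95. Idh2, the mitochondrial isocitrate dehydrogenase, had a log2 fold change of 1.17 (edgeR adjusted p = 0.0552). Its KO and WT libraries did not overlap, and 16.9% of all genes were higher in KO without overlap. As Idh2 was picked for following Prkab1 over these same libraries, this is no separate result. For Prkaa2 they were Prr3, Arel1 and Abhd13 (0.993, 0.988 and 0.987, with 48 genes above 0.95), and for Prkaa1 Kpna3, Actr2 and Rprd2 (0.995, 0.991 and 0.987, with 78). For Prkag1 they were Uox, Ppp5c and Rap1gap (0.992, 0.990 and 0.987, with 31), and for Prkag2 they included Itgb4 and Gm11266 (0.990 and 0.989, with 44). Prkab2, at its low level, had Cep70, Thap3 and Rnaset2a as its closest genes (0.974, 0.972 and 0.971, with 6). The 6 libraries differ by group and by Xist or Y-linked counts, which all of these coefficients share, and no paralog was among the closest genes of its partner.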

How the data were processed

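The deposited values are expected counts per gene for 6 libraries, as the name of the table and its values that are not whole show. The submitters' processing notes name bcl2fastq 2.17, cutadapt 1.18, STAR 2.7.0f, RSEM 1.3.1 and the build mm9. All 55450 versioned gene identifiers are in GENCODE M21, which is on GRCm38, so lengths and positions come from that annotation and not from mm9. Groups and replicate numbers come from the titles, and each column was matched to a sample by its description.

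Counts were rounded. Genes were kept by filterByExpr, scaled by TMM, and compared with edgeR 4.0.16 (quasi-likelihood, group only) in R 4.3.3, with Benjamini-Hochberg adjustment over 14539 genes. The threshold was 0.05, and SE is the absolute log2 fold change divided by the root of F. CPM uses TMM-scaled libraries. Log2 CPM has a prior count of 2, and ratios of single libraries an offset of 0.1 CPM. Ratios and sums of paralogs use the union of exons and exact permutation tests (scipy 1.17.1). Similar transcripts were sought with blastn 2.17.0. The edgeR, limma 3.58.1 and DESeq2 1.42.0 tests were tried on simulated counts. The labels give no litters or dates.

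The members and lists were chosen with earlier results of these data known. Named genes are the members, Stk11, in each pathway list up to 3 genes ranked by adjusted p, and the 3 closest genes by Pearson coefficient for each member. Some genes that this rule names are not reported here. Tat, Alb, Apoa1, Ttr, Cps1, Ptprc, Car3, Cidec, Adipoq, Plin1, Prkag3 and the antisense genes were named after their values were seen. Alternatives changed the scaling, filter, tool, libraries, length and replicate block.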

Additional observations from a re-analysis of the deposited data

How the results depend on the processing

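With all libraries 0 AMPK subunit genes passed the threshold, and 1 (Prkab1) did by DESeq2 and when restricted to the 4 libraries with Y-linked counts. Leaving out 1 library gave 0 to 1, the 1 being without KO replicate 1, where 30.2% of all genes passed. Over all genes, 490 passed in the main analysis, 771 with no filter on low counts, 2290 by DESeq2, 105 with the replicate block, 4847 in the Y-linked libraries and 1504 with Xist state as a covariate, chosen after seeing the data. Leaving out 1 library gave 6 (without WT replicate 2) to 4473 (without KO replicate 1). With library size as the only scaling, 380 genes were higher and 131 lower, in place of 313 and 177. The cause of these shifts was not tested.

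Prkaa2, Prkab1 and Prkag1 kept their direction in all 14 alternatives. Prkaa1 turned to 0.0268 (log2) with library size only and to 0.12 in the Y-linked libraries, and ran from -0.14 to 0.16 over the libraries left out. Prkab2 ran from -0.13 to 0.0286 over these, turning without KO replicate 3. Prkag2 turned to -0.0194 by limma voom, -0.0190 with the replicate block, -0.11 in the Y-linked libraries and -0.00823 with Xist state as covariate, and ran from -0.22 to 0.21 over the libraries left out. None of these values passed, and the cause was not tested. Sums of paralogs kept their direction under every alternative run, among them the principal transcript's length, chosen after seeing the data. Ratios of paralogs did so too, but length and library scaling cancel in the difference of a log2 ratio between groups. The replicate block leaves the difference of ratios and of sums unchanged as well. For the ratios, only the alternatives that left out libraries could therefore have changed the direction. The exact tests of ratios and sums cannot reach 0.05 with 3 mice a group.

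Same-numbered KO and WT libraries deviated together with coefficients of 0.178, 0.0443 and 0.0679, and KO replicate 3 was closer to WT replicate 2 (0.203), so the numbers were not taken as pairing the mice. With the replicate block Prkab1 had a log2 fold change of 0.61 (edgeR adjusted p = 0.132) and 0 members passed. Depth limits Prkab2 most, with at most 152 counts in a library.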
